A study of Mus musculus with 56 samples.

Results

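The genes described are 9 cathepsins and cystatin C (Ctsa, Ctsb, Ctsd, Ctse, Ctsh, Ctsk, Ctsl, Ctss, Ctsz and Cst3), 10 of the 24424 genes in the deposited table. They are named members of the protease family together with its secreted inhibitor, and were chosen with earlier results of these data known. RNA was sequenced from progenitors of the bone marrow of C57BL/6 mice. T2F3 mice lack Tet2, an enzyme that oxidizes 5-methylcytosine, and carry the internal tandem duplication (ITD) of the receptor kinase Flt3 (Tet2-/-Flt3ITD), and WT mice carry neither change. Multipotent progenitors (MPP) were sorted as lin- Sca+ cKit+ CD48+ CD150- cells and granulocyte-macrophage progenitors (GMP) as lin- Sca- cKit+ CD34+ CD16/32+ cells. There were 3 libraries of T2F3 MPP, 4 of WT MPP, 3 of T2F3 GMP and 5 of WT GMP, 15 in all, named here by their group and replicate number. The ages of the mice are not given in the sources used here, and nothing in the labels says how many animals gave each library, so a p-value here speaks only of how much these libraries varied.

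Cathepsins are proteases that are made as inactive precursors, carried to endosomes and lysosomes by mannose 6-phosphate receptors, and activated there at low pH. Cathepsins B, H, K, L, S and Z cut with a cysteine, cathepsins D and E with an aspartate, and cathepsin A is a serine carboxypeptidase. In antigen-presenting cells some of these enzymes degrade the invariant chain that guards the peptide groove of class II molecules. Cystatin C, encoded by Cst3, binds and blocks the cysteine cathepsins. Cathepsin S and cystatin C are known for high transcript levels in dendritic cells.

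In T2F3 MPP, 3 genes were several-fold higher than in WT MPP: Cst3 5.19-fold, Ctsh 3.73-fold and Ctss 3.67-fold. Ctsb, Ctsz and Ctsl rose by 1.31-fold to 1.45-fold, while Ctse was 3.00-fold lower. In T2F3 GMP, Ctss was 3.13-fold, Cst3 2.65-fold and Ctsh 2.16-fold higher than in WT GMP, and Ctse was 1.46-fold lower. Of the 9 members whose mean passed the minimum for testing, 7 passed the test in MPP, 6 higher and 1 lower, where 40.3% of the 12133 genes tested passed it, 20.7% higher and 19.6% lower. In GMP 4 of the 9 passed, 3 higher and 1 lower, where 15.3% of all tested genes did, 9.25% higher and 6.04% lower. Values are the authors' regularized log2 values, in which genes with few reads are drawn towards their mean, so folds of low genes are understated. Levels of different genes are not compared, except where the levels of a list are summed, and such sums mostly follow the highest genes. Each difference is T2F3 minus WT on that log2 scale with the standard error (SE) and Benjamini-Hochberg adjusted p of limma's test over all tested genes, and a gene passed at an adjusted p under 0.05.

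**Figure D1:**
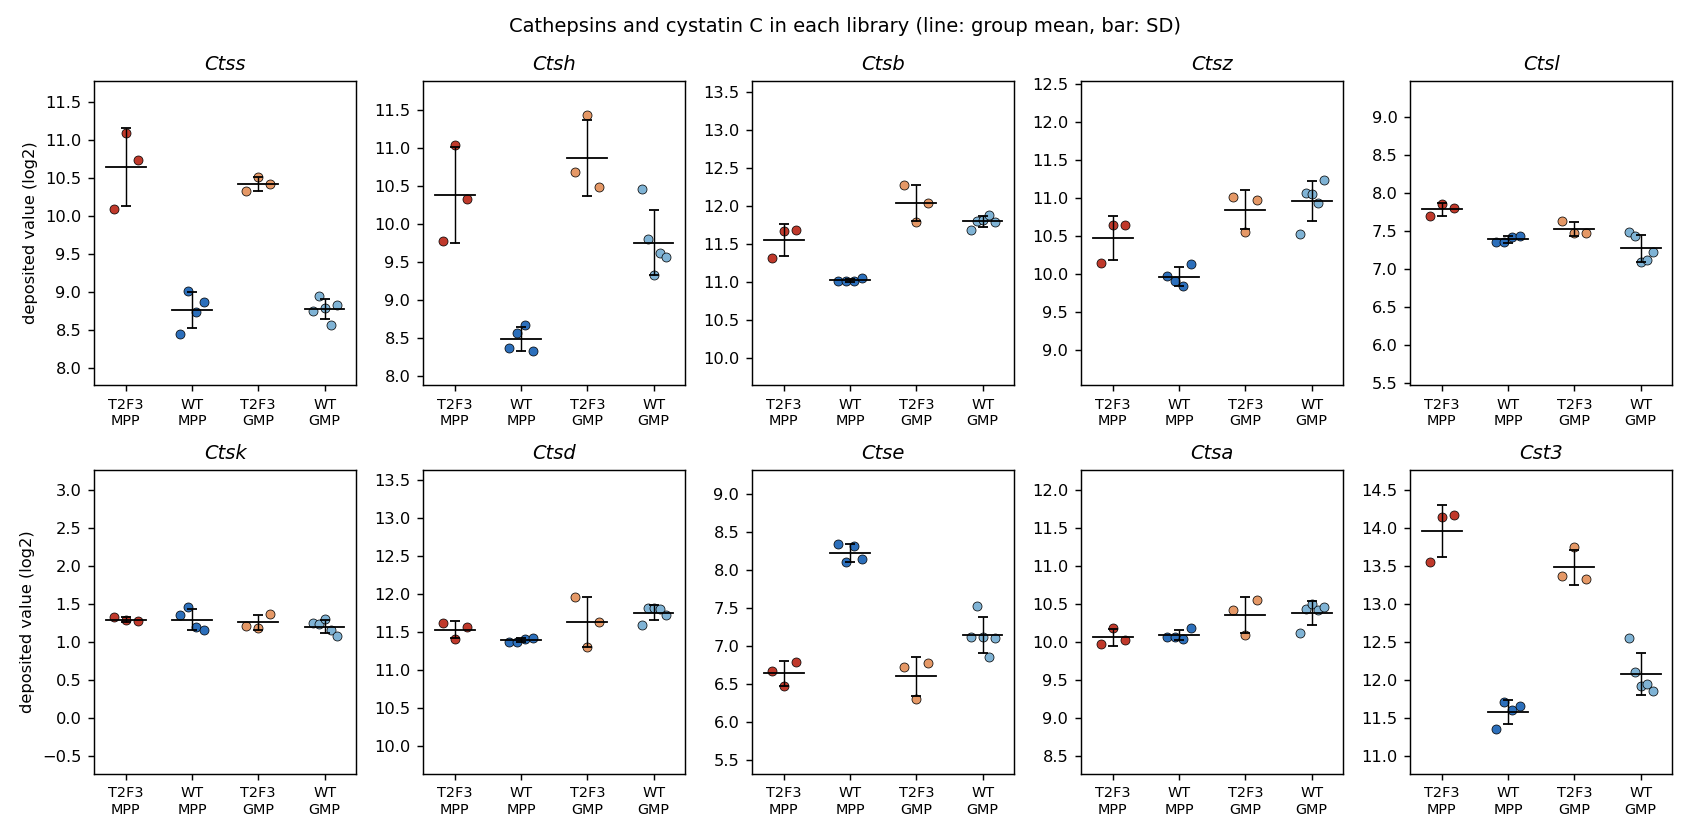
The vertical axis is the deposited log2 value of each gene and each point is 1 library, with T2F3 MPP, WT MPP, T2F3 GMP and WT GMP along the horizontal axis; lines are group means and bars are SDs. Ctss, Ctsh and Cst3 lay higher in every T2F3 library than in every WT library of the same population, Ctse lay lower, and Ctsk lay between 1.07 and 1.46 in all 15 libraries.

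No pair of libraries held identical values, and libraries of 1 group correlated across genes at 0.973 or above. WT GMP 1 and T2F3 GMP 2 stood apart: the median of 74 ribosomal protein genes was 1.15 and 0.92 log2 above that of the other libraries of their groups. Differences of members whose call changes without this pair are also given without it, as are some of the list counts that change. The same median moved with genotype in MPP, at 13.25 to 13.27 in T2F3 MPP and 12.50 to 12.63 in WT MPP, and spanned 12.82 to 13.92 in T2F3 GMP and 12.71 to 13.95 in WT GMP. With this score as a covariate the MPP differences were 2.03 for Cst3, 1.85 for Ctss, 1.31 for Ctsh and -1.51 for Ctse, and all of them passed the test. Since the score and the genotype divide the MPP libraries the same way, their parts within MPP cannot be told apart. Tet2, counted over the whole gene, was 9.67 to 9.90 in T2F3 MPP and 9.71 to 9.89 in WT MPP, and 9.88 to 10.30 in T2F3 GMP and 9.87 to 10.19 in WT GMP, which checks nothing where a deletion takes only part of a gene. Of the sorting markers, Ly6a (Sca-1) was 7.45 to 7.69 in T2F3 GMP and 6.97 to 7.32 in WT GMP, against 8.18 to 8.52 in T2F3 MPP and 7.53 to 7.90 in WT MPP. Fcgr3 (CD16) was 10.27 to 11.12 in T2F3 GMP and 10.74 to 11.58 in WT GMP, against 8.78 to 8.98 in T2F3 MPP and 8.71 to 9.15 in WT MPP. Some sorting genes also differed by genotype: Kit was 11.27 to 11.45 in T2F3 MPP and 12.12 to 12.41 in WT MPP, Cd48 11.39 to 11.60 in T2F3 MPP and 9.76 to 10.09 in WT MPP, and Flt3 9.87 to 10.47 in T2F3 GMP and 8.72 to 8.89 in WT GMP. In bulk RNA, a larger share of cells of a type and more RNA per cell cannot be told apart, which holds for every difference below.

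Ctss encodes cathepsin S, an endopeptidase that stays active at neutral pH and makes the late cuts in the invariant chain. Its values were 10.09, 11.10 and 10.74 in T2F3 MPP libraries 1 to 3, against 8.46, 9.01, 8.74 and 8.87 in WT MPP libraries 1, 3, 4 and 5. The lowest T2F3 MPP library was more than 1 log2 unit above the highest WT MPP library. The difference was 1.88 ± 0.18 (SE; 95% interval 1.50 to 2.25; adjusted p = 9.97e-07). In GMP the values were 10.34, 10.52 and 10.43 in T2F3 libraries 1 to 3, against 8.76, 8.95, 8.79, 8.57 and 8.83 in WT libraries 1 to 5. The T2F3 GMP libraries lay close together and again well above all WT GMP libraries, with a difference of 1.65 ± 0.17 (SE; 95% interval 1.29 to 2.01; adjusted p = 3.69e-06), and 1.60 without WT GMP 1 and T2F3 GMP 2.

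Ctsh encodes cathepsin H, which acts mainly as an aminopeptidase. It had 9.78, 11.05 and 10.33 in T2F3 MPP, against 8.38, 8.57, 8.67 and 8.33 in WT MPP. The groups did not overlap, but the T2F3 MPP libraries spanned more than 1 log2 unit (SD 0.64, against 0.16 in WT MPP), and the difference was 1.90 ± 0.28 (SE; adjusted p = 0.000106). In T2F3 GMP the values were 10.69, 11.44 and 10.49, against 10.46, 9.80, 9.33, 9.62 and 9.57 in WT GMP. The lowest T2F3 GMP library was only just above the highest WT GMP library, which was WT GMP 1. That difference was 1.11 ± 0.27 (SE; adjusted p = 0.0102). It was 0.83 with an adjusted p of 0.0774 without T2F3 GMP 2, and 1.01 with an adjusted p of 0.0265 without both T2F3 GMP 2 and WT GMP 1, where the adjusted p over all 27 alternatives ran from 0.00205 to 0.0774. Ctsh was 0.85 above the other libraries of its group in T2F3 GMP 2 and 0.88 above them in WT GMP 1. These are the 2 libraries with high ribosomal protein transcripts, and when that score was a covariate the GMP difference was 0.89 (adjusted p = 0.00728).

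Ctsb, which encodes cathepsin B, an abundant enzyme that both trims carboxy ends and cuts within chains, had 11.31, 11.67 and 11.68 in T2F3 MPP, against 11.01, 11.01, 11.00 and 11.04 in WT MPP. The WT MPP libraries were nearly level and all T2F3 MPP libraries lay above them, by 0.53 ± 0.12 (SE; adjusted p = 0.00259). In GMP it had 12.28, 11.79 and 12.04 in T2F3 libraries, against 11.68, 11.79, 11.82, 11.88 and 11.79 in WT libraries. These groups overlapped, and the difference of 0.24 ± 0.11 (SE) had an adjusted p of 0.158. Without WT GMP 1 and T2F3 GMP 2 the GMP difference was 0.34 with an adjusted p of 0.0302, where the adjusted p over the alternatives ran from 0.00302 to 0.522.

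Ctsz encodes cathepsin Z, a carboxypeptidase. In T2F3 MPP it had 10.15, 10.65 and 10.65, against 9.97, 9.92, 9.85 and 10.14 in WT MPP. T2F3 MPP 1 was barely above WT MPP 5, and the difference of 0.51 ± 0.17 (SE; adjusted p = 0.0230) rested on few libraries. Its adjusted p was 0.102 without T2F3 MPP 2, 0.101 without T2F3 MPP 3, 0.0505 without WT MPP 3 and 0.0552 without WT MPP 4, in a range of 8.24e-06 to 0.102 over the alternatives. In GMP the groups overlapped, at 11.02, 10.55 and 10.98 in T2F3 libraries against 10.53, 11.07, 11.06, 10.94 and 11.24 in WT libraries, with a difference of -0.11 ± 0.16 (SE; adjusted p = 0.669).

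Ctsl, which encodes the endopeptidase cathepsin L, had 7.70, 7.86 and 7.81 in T2F3 MPP, against 7.35, 7.36, 7.43 and 7.44 in WT MPP. The spread within each group was small and the groups lay apart, by 0.39 ± 0.11 (SE; adjusted p = 0.00889). With the ribosomal protein level as a covariate it was 0.27 with an adjusted p of 0.0675, in a range of 9.88e-05 to 0.0675 over the alternatives. In GMP, T2F3 libraries had 7.64, 7.48 and 7.48, against 7.49, 7.44, 7.09, 7.12 and 7.23 in WT libraries. WT GMP 1 and 2 reached the level of the T2F3 GMP libraries, and the difference of 0.26 ± 0.10 (SE) had an adjusted p of 0.0927. It was 0.31 with an adjusted p of 0.0218 without WT GMP 1 and 0.34 with an adjusted p of 0.0367 without that library and T2F3 GMP 2, where the alternatives gave 0.00185 to 0.257. Ctsk, which encodes the collagen-degrading cathepsin of osteoclasts, was 1.27 to 1.32 in T2F3 MPP, 1.16 to 1.46 in WT MPP, 1.19 to 1.37 in T2F3 GMP and 1.07 to 1.30 in WT GMP. These groups overlapped at a level under the minimum mean of 4, and Ctsk was not tested. Of 9 osteoclast markers, 5 reached that minimum and Calcr was listed at 0. The log2 summed level of the list was 10.26 to 10.33 in T2F3 MPP and 10.38 to 10.57 in WT MPP, and 10.31 to 10.59 in T2F3 GMP and 10.09 to 10.47 in WT GMP.

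Ctse encodes cathepsin E, an aspartic protease found mainly in endosomes, and it was the member that fell. T2F3 MPP libraries had 6.67, 6.47 and 6.79, against 8.34, 8.11, 8.32 and 8.15 in WT MPP libraries. All T2F3 MPP libraries lay more than 1 log2 unit below all WT MPP libraries, with a difference of -1.59 ± 0.15 (SE; 95% interval -1.90 to -1.27; adjusted p = 8.01e-07). In GMP the values were 6.73, 6.30 and 6.78 in T2F3 libraries, against 7.12, 7.52, 7.12, 6.86 and 7.11 in WT libraries. T2F3 GMP 3 was only slightly below WT GMP 4, and the difference was -0.54 ± 0.14 (SE; adjusted p = 0.0150). It was -0.40 with an adjusted p of 0.110 without T2F3 GMP 2 and -0.40 with an adjusted p of 0.0627 without that library and WT GMP 1, in a range of 0.0069 to 0.11 over the alternatives.

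Ctsd encodes cathepsin D, the main aspartic endopeptidase of lysosomes. It had 11.61, 11.40 and 11.56 in T2F3 MPP, against 11.37, 11.36, 11.40 and 11.42 in WT MPP, and the groups overlapped. The MPP difference was 0.14 ± 0.12 (SE; 95% interval -0.12 to 0.40; adjusted p = 0.376). In GMP the T2F3 libraries had 11.96, 11.30 and 11.62, which spanned all of the WT libraries at 11.59, 11.82, 11.81, 11.80 and 11.72. The GMP difference was -0.12 ± 0.12 (SE; 95% interval -0.37 to 0.13; adjusted p = 0.535), so a change of the size of Ctss lay outside both intervals.

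Ctsa encodes cathepsin A, a carboxypeptidase that also protects β-galactosidase and neuraminidase 1 in a complex. Its T2F3 MPP values of 9.97, 10.18 and 10.02 overlapped the WT MPP values of 10.06, 10.06, 10.04 and 10.18, with a difference of -0.03 ± 0.11 (SE; 95% interval -0.27 to 0.21; adjusted p = 0.852). T2F3 GMP values of 10.42, 10.09 and 10.56 overlapped WT GMP values of 10.11, 10.43, 10.50, 10.42 and 10.46, with a difference of -0.03 ± 0.11 (SE; adjusted p = 0.884). The genes of its partners, taken up after their values were seen, passed narrowly in GMP: Glb1, for β-galactosidase, fell by 0.46 (adjusted p = 0.0479) and Neu1, for neuraminidase 1, by 0.26 (adjusted p = 0.0412), with overlapping libraries. In MPP the differences were -0.35 for Glb1 (adjusted p = 0.0821) and -0.02 for Neu1 (adjusted p = 0.843).

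Cst3, for cystatin C, changed more than any of the proteases in MPP. T2F3 MPP libraries had 13.56, 14.14 and 14.17, against 11.36, 11.71, 11.60 and 11.66 in WT MPP libraries. The gap between the groups was several times the spread within either, and the difference was 2.38 ± 0.18 (SE; 95% interval 1.99 to 2.76; adjusted p = 1.12e-07). By size it ranked 67 among the 12133 genes tested. In GMP, T2F3 libraries had 13.36, 13.75 and 13.33, against 12.55, 12.11, 11.92, 11.94 and 11.86 in WT libraries. WT GMP 1 was the highest of its group but still below every T2F3 GMP library, and the difference was 1.40 ± 0.18 (SE; 95% interval 1.03 to 1.78; adjusted p = 2.64e-05), and 1.39 without WT GMP 1 and T2F3 GMP 2.

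Across the members, the groups of libraries did not overlap for 7 of 9 genes in MPP, where this held for 54.1% of all tested genes, and for 4 of 9 in GMP, where it held for 17.0%. The median member difference was 0.51 in MPP and 0.24 in GMP, beside -0.02 over all tested genes in each population. As the members were chosen with earlier results of these data known, these figures describe them and do not test the family. In T2F3 MPP 1 the genes with the largest rises were low together, Ctsh by 0.91, Ctss by 0.83 and Cst3 by 0.60 relative to the other libraries of the group.

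**Figure D2:**
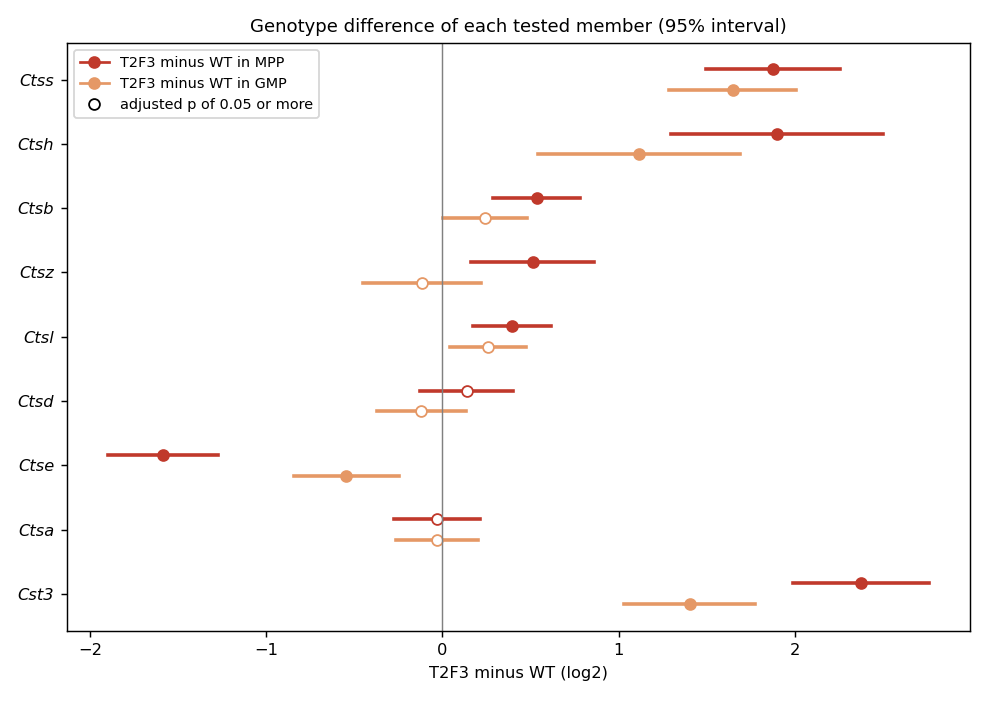
The horizontal axis is the difference T2F3 minus WT in log2 units, with MPP above GMP for each gene; points are estimates, lines are 95% intervals, and open points had an adjusted p of 0.05 or more. Cst3, Ctss and Ctsh lie to the right in both populations, from 1.11 to 2.38, and Ctse lies to the left at -1.59 in MPP and -0.54 in GMP.

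The promoters of Ctss and Cst3 are shown because these genes rose in both populations, and that of Ctsd because it passed the test in neither. They come from RefSeq on GRCm38.p6, run from 250 bases before to 50 bases after the start, and are written in the direction of transcription. Of the 10 members 7 had a promoter in the RefSeq table, with Ctsb, Ctse and Ctsh not among them. Capitals mark matches on either strand to GAGGAA (the core bound by PU.1 and other ETS factors), the core of the interferon-stimulated response element, TATAAA (the TATA box), and CACGTG (the E-box core of the element shared by many lysosomal genes).
Ctss, chr3:95526536-95526835, plus strand: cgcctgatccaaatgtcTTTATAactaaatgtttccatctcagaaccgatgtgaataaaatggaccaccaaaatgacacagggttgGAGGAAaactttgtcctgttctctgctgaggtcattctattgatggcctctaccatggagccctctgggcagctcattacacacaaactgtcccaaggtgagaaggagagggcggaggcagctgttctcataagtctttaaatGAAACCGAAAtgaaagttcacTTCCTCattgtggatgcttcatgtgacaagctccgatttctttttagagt
Cst3, chr2:148875463-148875762, minus strand: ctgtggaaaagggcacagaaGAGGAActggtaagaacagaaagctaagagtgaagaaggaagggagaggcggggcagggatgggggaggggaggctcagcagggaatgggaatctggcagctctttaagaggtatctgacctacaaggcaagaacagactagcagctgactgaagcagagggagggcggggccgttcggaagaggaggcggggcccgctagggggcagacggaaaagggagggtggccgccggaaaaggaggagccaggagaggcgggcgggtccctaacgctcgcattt
Ctsd, chr7:142387778-142388077, minus strand: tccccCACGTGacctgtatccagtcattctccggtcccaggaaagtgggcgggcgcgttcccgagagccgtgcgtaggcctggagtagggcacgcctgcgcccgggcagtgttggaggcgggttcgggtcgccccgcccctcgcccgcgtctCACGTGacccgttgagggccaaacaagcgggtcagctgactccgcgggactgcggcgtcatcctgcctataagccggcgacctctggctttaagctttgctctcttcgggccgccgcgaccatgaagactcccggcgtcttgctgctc
The Ctss window held GAGGAA at -164 and, on the other strand, at 1, the interferon-stimulated response element core at -21, and TATAAA on the other strand at -233, counted from the start. Cst3 held GAGGAA at -230, and Ctsd held CACGTG at -245 and at -98. CACGTG also stood at -12 and at 6 in 1 of the 2 Ctsa promoters and at -236 in that of Ctsl, and GAGGAA at -233 and, on the other strand, at -58 in that of Ctsk. Of the 32851 promoters of this length in the table, GAGGAA was in 28.3%, the interferon-stimulated response element core in 3.44%, TATAAA in 13.6% and CACGTG in 7.15%. The composite element of ETS and IRF factors (2.72% of promoters) and TTCNNNGAA, the core bound by STAT factors (8.3%), matched no member's promoter, and the Ctsz promoter held none of the letters searched. A match is a run of letters, and binding was not measured here.

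Whether the genotype difference itself changed between the populations was tested as the difference in GMP minus the difference in MPP. Ctse was the member that passed, at 1.04 ± 0.20 (SE; 95% interval 0.61 to 1.47; adjusted p = 0.0158), where 2.26% of all tested genes passed, 1.38% upward and 0.882% downward. Its fall was 1.59 in MPP and 0.54 in GMP. Without T2F3 GMP 3 the value was 0.95 with an adjusted p of 0.0514, and over the alternatives the adjusted p ran from 0.000234 to 0.0514. For Cst3 the value was -0.97 ± 0.25 (SE; 95% interval -1.51 to -0.43) with an adjusted p of 0.0573. It passed without T2F3 MPP 1 (adjusted p = 0.0133), without T2F3 GMP 2 (adjusted p = 0.0438), without WT GMP 1 (adjusted p = 0.0394), and without both GMP libraries (adjusted p = 0.00823), and the alternatives, several of which also passed, ran from 0.000257 to 0.188. Ctsz, at -0.63 ± 0.23 (SE; adjusted p = 0.154), passed without WT GMP 1 (-0.74, adjusted p = 0.0484) and without both GMP libraries (-0.59, adjusted p = 0.0348; alternatives 0.00315 to 0.379). The values were -0.79 ± 0.39 for Ctsh (adjusted p = 0.284) and -0.23 ± 0.25 for Ctss (SE; 95% interval -0.75 to 0.29; adjusted p = 0.625), and the adjusted p was 0.328 or more for Ctsb, Ctsd, Ctsl and Ctsa.

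Between the populations of 1 genotype, GMP was set against MPP. In T2F3 mice Ctsb was the member that passed, at 12.04 ± 0.24 in T2F3 GMP and 11.55 ± 0.21 in T2F3 MPP (SD, n = 3 each), a difference of 0.48 ± 0.12 (SE; adjusted p = 0.00938), where 22.2% of all tested genes passed, 10.5% higher and 11.7% lower. Ctsb no longer passed without T2F3 MPP 1 (0.36, adjusted p = 0.0550) or T2F3 GMP 1 (0.36, adjusted p = 0.0600), in a range of 5.33e-05 to 0.0967 over the alternatives. Cst3 was lower in T2F3 GMP than in T2F3 MPP by 0.48 ± 0.20 (SE; adjusted p = 0.0975). That difference passed without T2F3 MPP 1 (-0.68, adjusted p = 0.0226), T2F3 GMP 2 (-0.61, adjusted p = 0.0447) or WT GMP 1 (adjusted p = 0.0344), in a range of 0.000108 to 0.299. Ctss had an adjusted p of 0.493, and passed without T2F3 MPP 1 (-0.49, adjusted p = 0.0340; range 0.028 to 0.981). Ctsa had an adjusted p of 0.101, and passed without T2F3 GMP 2 (0.43, adjusted p = 0.0139) or WT GMP 1 (adjusted p = 0.0451; range 0.00105 to 0.344). WT GMP 1 is not in this comparison, so leaving it out changed only the shared spread and the adjustment. Without both T2F3 GMP 2 and WT GMP 1, Cst3 (-0.61, adjusted p = 0.00486), Ctsa (0.43, adjusted p = 0.00105) and Ctsz (0.52, adjusted p = 0.00614) passed beside Ctsb, with a range for Ctsz of 0.00614 to 0.536. The groups did not overlap for 2 of the 9 members, Ctsl and Ctsb, where this held for 33.5% of tested genes.

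In WT mice 7 of the 9 members passed, 6 higher and 1 lower in GMP, where 48.6% of all tested genes passed, 25.4% higher and 23.2% lower. Ctsh averaged 9.76 ± 0.43 in WT GMP and 8.49 ± 0.16 in WT MPP (SD, n = 5 and 4), a difference of 1.27 ± 0.25 (SE; adjusted p = 0.000510). Ctsz was 1.99-fold higher in WT GMP than in WT MPP, by 0.99 ± 0.15 (SE; adjusted p = 3.27e-05), and Ctsb was higher by 0.78 ± 0.10 (SE; adjusted p = 1.20e-05). Smaller rises were those of Cst3 (0.49 ± 0.16; adjusted p = 0.0182), Ctsd (0.36 ± 0.11; adjusted p = 0.0125) and Ctsa (0.30 ± 0.10; adjusted p = 0.0226). Ctse fell to 7.15 ± 0.24 in WT GMP, against 8.23 ± 0.12 in WT MPP (SD, n = 5 and 4), a difference of -1.08 ± 0.13 (SE; adjusted p = 4.07e-06). In T2F3 libraries Ctse was 6.60 ± 0.26 in GMP and 6.64 ± 0.16 in MPP (SD, n = 3 each; adjusted p = 0.899). Ctss did not pass, at 8.78 ± 0.14 in WT GMP and 8.77 ± 0.24 in WT MPP (SD, n = 5 and 4), with an interval of the difference of -0.32 to 0.34. The groups did not overlap for 6 members, against 43.0% of tested genes. Ctsa lost its call without WT MPP 1 (adjusted p = 0.0531), WT MPP 3 (0.0536), WT MPP 4 (0.0591) or WT GMP 3 (0.0510), in a range of 9.98e-06 to 0.228, and Cst3 without WT MPP 1 (0.42, adjusted p = 0.0676; range 0.00262 to 0.154). Under quantile normalization Ctsa, Cst3 and Ctsd (0.13, adjusted p = 0.327; range 0.000152 to 0.327) did not pass.

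**Figure D3:**
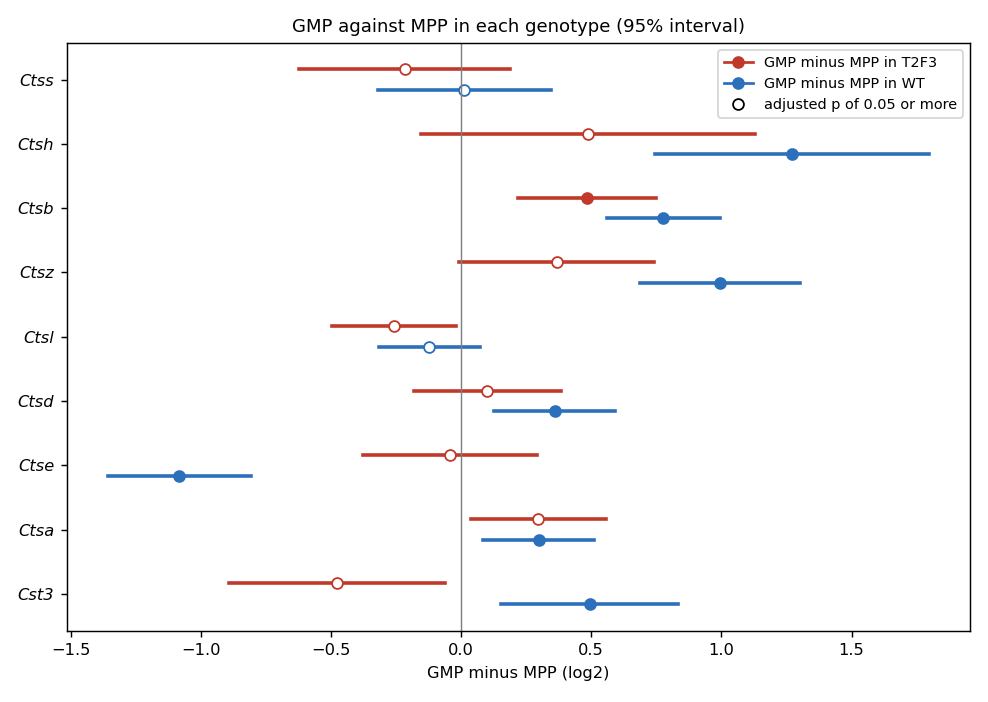
The horizontal axis is the difference GMP minus MPP in log2 units, with T2F3 above WT for each gene; points are estimates, lines are 95% intervals, and open points had an adjusted p of 0.05 or more. In WT, Ctse lies at -1.08 and Ctsh, Ctsz and Ctsb between 0.78 and 1.27, while in T2F3 only the point of Ctsb is filled.

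Other genes of the lysosome and of the cathepsin family were described from lists of known genes. Their counts are to be read beside the shares of all tested genes, 20.7% higher and 19.6% lower in MPP and 9.25% higher and 6.04% lower in GMP. With 1 library left out, the share passing in MPP ran from 23.6% (without T2F3 MPP 2) to 49.4% (without WT GMP 1). In GMP it ran from 9.68% (without T2F3 GMP 2) to 31% (without WT GMP 1). Left-out counts of the lists below are to be read beside these shares. Leaving out a GMP library kept every MPP difference as it was and changed only the shared spread and the adjustment. Of 6 further genes, other cathepsins and legumain (Ctsc, Ctsf, Ctsg, Ctso, Ctsw and Lgmn), 3 rose in MPP and 2 in GMP, with medians of 0.37 and 0.21. Ctsc, for cathepsin C, which activates serine proteases of granules, rose by 0.92 in MPP (adjusted p = 2.06e-05). Lgmn, for the asparaginyl protease legumain, rose by 0.60 in MPP (adjusted p = 0.0302) and 1.18 in GMP (adjusted p = 0.000520), and Ctso, for cathepsin O, by 0.48 in GMP (adjusted p = 0.00809). In MPP 1 rose without T2F3 MPP 2, T2F3 MPP 3, WT MPP 1 or WT MPP 5, and 4 rose and 1 fell without WT GMP 1, with or without T2F3 GMP 2. In GMP 3 rose and 1 fell without WT GMP 5.

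Of 15 other cathepsin inhibitors, the cystatins, stefins, serpins and propeptide-like Ctla2 proteins, 10 were tested. In MPP 6 of them rose and in GMP 1 rose, with medians of 0.59 and 0.36. Serpina3f rose by 1.70 in MPP and 0.62 in GMP and Serpina3g by 1.04 in MPP, although both belong to a family of near-identical genes whose reads may have been split uncertainly. The inhibitor count in MPP was 2 or 3 without any 1 of T2F3 MPP 1, 2 or 3 and WT MPP 1 or 5. In GMP it was 5 without WT GMP 1 and 0 by limma without T2F3 GMP 1, T2F3 GMP 3, WT GMP 3, WT GMP 4 or WT GMP 5, where 3 passed an unadjusted p of 0.05 over all libraries. Without both WT GMP 1 and T2F3 GMP 2, 10 rose in MPP and 2 in GMP.

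Among 22 genes of lysosomal sorting and membrane, 7 rose and 3 fell in MPP and 3 rose in GMP. Of all tested genes, 20.7% rose and 19.6% fell in MPP, and 9.25% rose and 6.04% fell in GMP. Npc2, which carries cholesterol out of lysosomes, rose by 1.06 in MPP and 0.61 in GMP, Tmem192 by 0.72 in MPP, and Cd68 by 0.66 in GMP. Of 34 tested glycosidases, lipases and other hydrolases, 11 rose and 1 fell in MPP and 9 rose and 2 fell in GMP. Ppt1, a thioesterase that removes palmitate from proteins, rose by 1.82 in MPP and 0.91 in GMP. Without WT GMP 1, 7 sorting and membrane genes rose and 2 fell in GMP, and 12 hydrolases rose and 5 fell. In that setting 31% of all tested genes passed in GMP, against 15.3% over all libraries. Without T2F3 GMP 3, 6 hydrolases rose and 1 fell in GMP, and without T2F3 MPP 3, 6 sorting genes rose in MPP. Without both WT GMP 1 and T2F3 GMP 2, 7 sorting genes rose in GMP, and 17 hydrolases rose and 3 fell in MPP.

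The vacuolar ATPase, the pump that acidifies the lysosome, had 16 tested subunit genes. In MPP 9 rose and 1 fell, with a median of 0.33, and the examples with the smallest p were Atp6v1g1 at 0.86 and Atp6v1e1 at 0.36. In GMP none passed by limma, with a median of 0.03, and 1 was higher and 1 lower at an unadjusted p under 0.05. In MPP 3 rose without T2F3 MPP 2 and 4 without T2F3 MPP 3. In GMP 3 rose and 1 fell when WT GMP 1 was left out, 1 fell when T2F3 GMP 3 was, and 1 rose and 1 fell without WT GMP 1 and T2F3 GMP 2.

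All 11 genes of class II antigen processing rose in both populations, with medians of 1.92 in MPP and 1.54 in GMP. H2-Aa, for a class II chain, rose by 3.01 in MPP and 3.28 in GMP, H2-Ab1 by 2.86 in MPP and H2-Eb1 by 3.18 in GMP. The count was 11 in both populations without any 1 library. The log2 summed level of the list was 15.43 to 16.28 in T2F3 MPP and 12.92 to 13.70 in WT MPP, and 15.05 to 15.23 in T2F3 GMP and 12.40 to 12.63 in WT GMP. Of 8 transcription factors known to act on lysosomal or class II genes, 3 rose in each population, among them Ciita (2.18 in MPP and 2.78 in GMP), the master regulator of class II genes, and Irf8 (1.58 and 0.94), a factor of monocyte and dendritic cell development. Without WT GMP 1, with or without T2F3 GMP 2, 5 of the 8 rose in MPP.

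**Figure D4:**
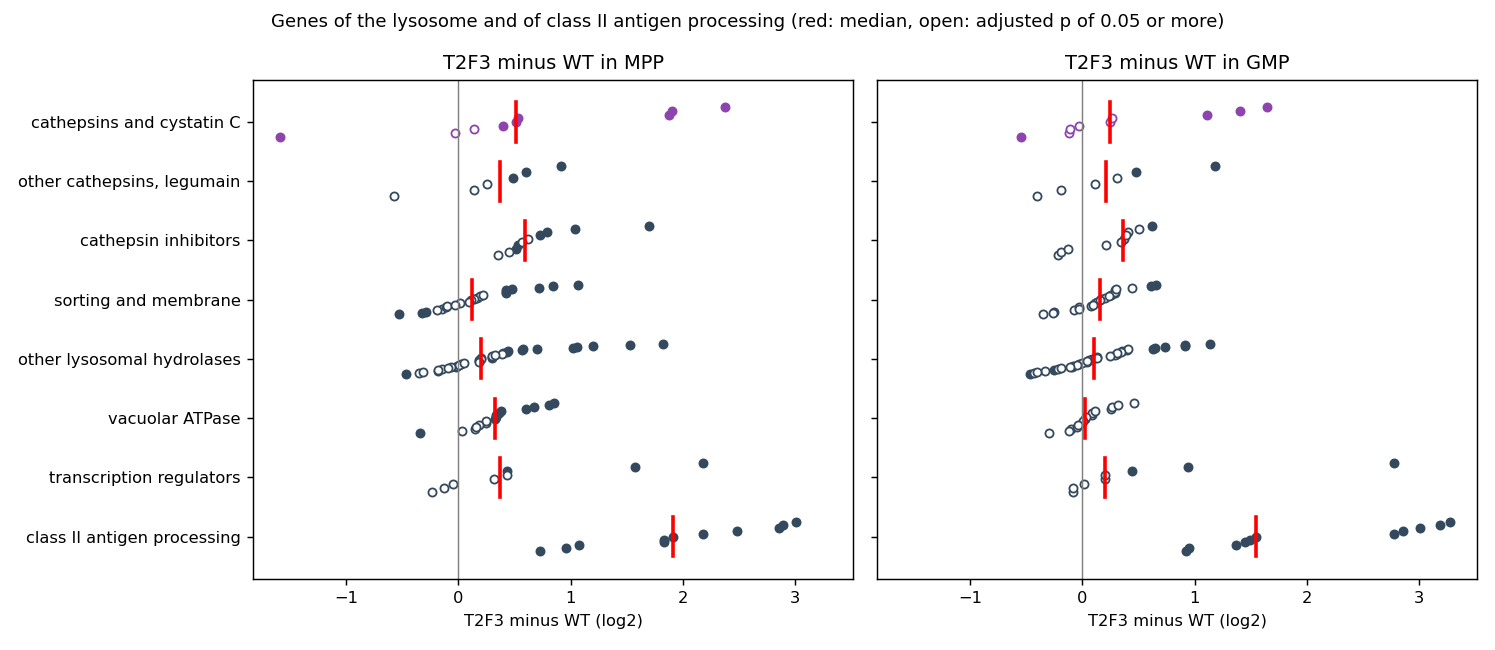
The horizontal axis is the difference T2F3 minus WT in log2 units, in MPP on the left and in GMP on the right; each point is a tested gene of the list named on the vertical axis, spread vertically in order of its value, red lines are medians, and open points had an adjusted p of 0.05 or more. The 11 class II genes are all filled and to the right of 0 in both panels, and no vacuolar ATPase point is filled in GMP.

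Markers of conventional dendritic cells and monocytes moved with these genes between genotypes. Marker counts between genotypes are to be read beside the shares of all tested genes. In MPP 20.7% were higher and 19.6% lower in T2F3, and in GMP 9.25% were higher and 6.04% lower. Of 10 conventional dendritic cell markers, among them Flt3, which carries the ITD in T2F3 mice, 8 rose in MPP and 9 in GMP. Flt3 was level in MPP (means of 11.32 in T2F3 and 11.38 in WT) and rose by 1.28 in GMP. In WT MPP it was a large part of the log2 summed level of the list. That level was 12.71 to 13.21 in T2F3 MPP and 11.94 to 12.17 in WT MPP, and 12.29 to 12.57 in T2F3 GMP and 11.20 to 11.47 in WT GMP. Of 12 tested monocyte and macrophage markers, 11 rose in MPP and 8 in GMP, at 14.40 to 15.09 in T2F3 MPP and 12.99 to 13.46 in WT MPP, and 15.20 to 15.95 in T2F3 GMP and 14.32 to 14.73 in WT GMP. Of 7 plasmacytoid dendritic cell markers 1 rose and 1 fell in each population, with summed levels of 11.34 to 11.61 in T2F3 MPP and 11.70 to 11.81 in WT MPP, and 10.90 to 11.33 in T2F3 GMP and 10.91 to 11.05 in WT GMP. With 1 library left out, 2 to 5 of the plasmacytoid markers passed in MPP and 0 to 2 in GMP. No marker of these lists was at 0 in all 15 libraries, and absence from a single group was not looked at. From WT MPP to WT GMP, 6 of 10 conventional dendritic cell markers fell and 2 rose, and 9 of 12 monocyte markers rose. In that step 25.4% of all tested genes were higher and 23.2% lower. Ctss was level in it (0.01), while Ctsh rose by 1.27 and Cst3 by 0.49. Between genotypes, the conventional dendritic and monocyte counts moved by less than 1.5 times without any 1 library. The part of these cells in the rises of Ctss, Ctsh and Cst3 was not tested. In the other direction between genotypes, 7 of 8 tested erythroid markers fell in each population, beside the fall of Ctse. So did 6 of 8 basophil, mast cell and eosinophil markers in MPP and 7 in GMP. From WT MPP to WT GMP, 7 of the 8 basophil, mast cell and eosinophil markers rose and 1 fell, while Ctse fell by 1.08. In that step 6 of 8 erythroid markers fell and 1 rose. From T2F3 MPP to T2F3 GMP, 5 of the 8 basophil, mast cell and eosinophil markers rose and 1 fell. No erythroid marker passed there, and Ctse was level (-0.04). Erythroid summed levels were 10.81 to 11.19 in T2F3 MPP and 11.37 to 11.66 in WT MPP, and 11.15 to 11.29 in T2F3 GMP and 11.31 to 11.68 in WT GMP, with Hbb-bt listed at 0. Basophil, mast cell and eosinophil levels were 10.31 to 10.70 in T2F3 MPP and 11.21 to 11.58 in WT MPP, and 11.35 to 13.06 in T2F3 GMP and 13.35 to 13.92 in WT GMP. Of 5 tested B lymphoid markers 4 fell in each population, 2 of 5 megakaryocyte markers fell and 1 rose in MPP and 3 fell in GMP, and of 11 stem and progenitor markers 7 fell and 2 rose in MPP and 2 fell and 2 rose in GMP (1 and 1 without T2F3 GMP 2). The stem and progenitor list holds sorting genes, and the 2 that rose in each population were Ly6a and Cd48. Kit and Cd34, also sorting genes, had means of 12.30 and 12.58 in WT MPP and were a large part of the summed level there. The stem and progenitor summed level was 13.61 to 13.84 in T2F3 MPP and 13.97 to 14.12 in WT MPP, and 12.86 to 13.04 in T2F3 GMP and 12.92 to 13.05 in WT GMP. The part of the cell types whose markers fell in the fall of Ctse was not tested.

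Over the 15 libraries, likeness was measured as the root mean square difference in log2 after centring each gene on its mean, among 11338 named genes. Nearest to Ctss were H2-DMb2 (0.138), H2-DMb1 (0.157) and Lilra6 (0.169). H2-DMb1 and H2-DMb2 encode chains of the molecule that loads peptides onto class II, and these near-identical genes may share reads. Nearest to Cst3 were Cysltr1 (0.199), Id2 (0.217) and Ccl6 (0.235), and nearest to Ctsh were Ms4a6c (0.241), Ly86 (0.242) and Serpinb10 (0.272). Ctse had Mt2 (0.193), Atp7b (0.235) and Amigo2 (0.237) as nearest genes. For Ctsz they were Spi1 (0.115), Fut4 (0.130) and Ralb (0.134), and for Ctsb Arpc1b (0.109), Sgpp1 (0.114) and Cnn2 (0.119). Ctsa, Ctsd and Ctsl, which moved least, had as their closest genes Map7d1 (0.0713), Bckdha (0.0767) and Paics (0.0815), in that order. Among the members themselves the nearest pairs were Ctsa with Ctsd (0.146), Ctsb with Ctsz (0.193) and Ctss with Cst3 (0.285).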

How the data were processed

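The RNA was sequenced strand-specifically, per the labels' protocols. Expression of 24424 genes, by Entrez ID, in 15 libraries was deposited as 1 table of log2 values, regularized log values by the table's name. Tools named in the submitters' processing notes are Bowtie, DESeq2, HOMER and STAR, with the mm9 build, without versions or roles. Without counts, depth is unknown and counting errors cannot be stated. The 41 hydroxymethylcytosine and input samples of 56 were not analysed here.

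Symbols came from the RefSeq table of GRCm38.p6 (24345 of 24424 matched) and promoters from RefSeq on the same assembly. The test took 12133 genes, those whose mean was 4 or more. One limma model (version 3.58.1, R 4.3.3; a mean per group, eBayes with trend and robust) gave 5 contrasts, two-sided, with Benjamini-Hochberg adjustment at 0.05, and was checked on simulated data. Summed levels of lists add the values off the log scale. Motifs were searched in Python 3.11.15 with pandas 2.3.3 and NumPy 2.4.6, and plots were drawn with Matplotlib 3.10.9.

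The members and lists were chosen with earlier results of these data known. All members are named, at most 2 genes per list and population by smallest adjusted p, and the 3 nearest genes of a member. Some results that this rule takes are not reported here. The 27 alternatives varied the filter, the pseudocount, the scaling, the variance model, the libraries of the fit, replicate blocks and a ribosomal protein covariate, and left out each library in turn.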

Additional observations from a re-analysis of the deposited data

Results flagged for a closer look

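Ctsa in WT GMP 1 was 10.11, below the other WT GMP libraries at 10.42 to 10.50, and the gap was 0.789 of the group's range, past Dixon's critical value of 0.71 for 5 libraries. WT GMP 1 also had high ribosomal protein transcripts, and the part of this state was not tested. Ctsb in WT MPP 5 was 11.04, above the others at 11.00 to 11.01, with a gap of 0.846 of the range, just past the critical value for 4 libraries, although the whole range was a few hundredths of a log2 unit. Of the 20 groups of a gene and population looked at, 2 stood out in this way, and chance gives about 1 in 20.

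For Ctse the genotype difference itself differed between populations, by 1.04 log2 (GMP minus MPP) in limma's test of that difference (adjusted p = 0.0158), with all T2F3 libraries below all WT libraries in each population.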

How the results depend on the processing

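The rises of Cst3 and Ctss in MPP and GMP and of Ctsh and Ctsb in MPP, and the fall of Ctse in MPP, kept their direction and their side of the threshold in all 27 alternatives. Of 1206 values of single members under an alternative, 1097 kept both, 25 lost the threshold, 39 gained it and 45 changed sign. Where the library left out lay outside the groups compared, the difference stayed the same and only the shared spread and the adjustment changed. The cause of the other changes was not tested. Counts of members past the threshold ran from 6 to 7 (7 over all libraries) in MPP, 2 to 5 (4) in GMP, 0 to 3 (1) for the difference of effects, 5 to 7 (7) for GMP minus MPP in WT and 0 to 3 (1) in T2F3 when 1 library was left out. The share of all tested genes then ran from 23.6% to 49.4% in MPP and 9.68% to 31% in GMP. It was 0.651% to 4.83% for the difference of effects. For GMP minus MPP it was 42.2% to 51.6% in WT and 17.1% to 26.2% in T2F3. The difference of effects passed for 2 members with no filter, quantile normalization or the block on genotype and number, and for 3 with array weights, without WT GMP 1 and T2F3 GMP 2, or with the ribosomal covariate, where the share of all tested genes was 12.3%, 9.92% and 8.32% against 2.26%. GMP minus MPP in WT gave 4 under quantile normalization. In T2F3 it gave 2 under quantile normalization, 6 with array weights, 0 by limma with the groups alone (4 at an unadjusted p under 0.05 over all libraries), 4 without WT GMP 1 and T2F3 GMP 2, and 5 with the covariate, beside 36.2% of all tested genes with array weights and 35% with the covariate, against 22.2%.

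Sign changes were those of small differences. Ctsa in MPP was 0.0197 with array weights, 0.0151 with the number block and 0.214 with the ribosomal covariate (adjusted p = 0.0449, in a range of 0.0449 to 0.985), and -0.0912 to 0.0133 with 1 library left out. In GMP it was 0.00911 under quantile normalization, 0.00116 with the number block, 0.0359 without both libraries and 0.0621 with the covariate, and -0.131 to 0.104 with 1 left out. Its difference of effects was 0.0543 with median centring, 0.0603 under quantile normalization, 0.000476 with genotype and number as a block and 0.065 without both, and -0.102 to 0.134 with 1 left out. Ctsd in GMP was 0.0619 with array weights and 0.0024 without both, and -0.287 to 0.0423 with 1 left out. Ctsz in GMP was 0.00672 with the covariate, and -0.224 to 0.0348 with 1 left out. For GMP minus MPP in WT, Ctss was -0.0555 with median centring, -0.071 under quantile normalization, -0.0226 with array weights, -0.0546 with the number block and -0.00838 with the covariate, and -0.0928 to 0.0919 with 1 left out. In T2F3, Ctsd was -0.069 under quantile normalization (-0.066 to 0.263 with 1 left out), Ctse was 0.113 under quantile normalization, 0.0771 with array weights and 0.108 without both (-0.129 to 0.108), and Ctss was -0.494 to 0.0113. The Ctss difference of effects was -0.505 to 8.6e-05 with 1 left out.

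The labels do not say whether a replicate number marks 1 animal. Deviations of same-numbered T2F3 libraries correlated at 0.055, 0.2 and 0.296 and those of WT libraries at 0.0595 to 0.464, and 4 of 6 T2F3 and 6 of 8 WT libraries correlated best with their own number. Same-numbered libraries of other genotype, which cannot come from 1 animal, correlated at -0.326 to 0.517, highest for T2F3 GMP 3 with WT GMP 3. Such correlations therefore cannot show pairing. Not every correlation within a genotype was over 0.1 either, so the numbers were not taken to pair the libraries. With genotype and number as a block, Cst3 passed for the difference of effects (-0.971, adjusted p = 0.0392). With the number as a block, Ctsl in MPP was 0.349 (adjusted p = 0.0606) and Cst3 in GMP minus MPP in WT 0.444 (adjusted p = 0.053). The share of all tested genes past the threshold in MPP was 40.3% and 22.5% with this block, and 64.2% with array weights. In GMP it was 15.3%, and 33.8% with array weights, 23.6% with the covariate, 9.84% with no filter and 9.73% with the groups alone. Median centring moved the higher share of genes called in MPP to 40.2% from 51.3%, and 6 members still rose and 1 fell. It moved that share to 74.5% from 60.9% for the difference of effects and to 42.2% from 52.2% for GMP minus MPP in WT, where 5 members rose in place of 6. Shrinkage of low values limits what can be said of Ctsk.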
